A study of Mus musculus with 103 samples.

Results

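RNA from the hippocampus of homozygous TASTPM amyloid mice was set against that of wild-type mice at 18 months, the oldest age of a study of amyloid and tau mouse lines. The comparison rests on 3 HO-TASTPM mice and 7 wild-type mice, with 1 library per mouse, within a table of 24 groups of line and age. Expression was given in TPM, transcripts per 1000000, so that every library had the same sum. A gene was described where its mean reached 0.5 TPM in either group, which left 22311 of the 48526 genes in the table. HO-TASTPM mice are homozygous for 2 transgenes: a mutant human APP transgene under the Thy1 promoter and a second transgene that is not described here. HET-TASTPM mice carry both transgenes in the hemizygous state, and 4 of them, also aged 18 months, were used for comparison, together with 4 HO-TASTPM and 8 wild-type mice aged 8 months. For 3 genes the levels at 2, 4, 8 and 18 months are given as well, with TAS10 and Tau mice beside the lines named above. The levels of Cst7 and Gfap in Tau mice of 18 months are also given. TAS10 mice are hemizygous for the APP transgene alone. Tau mice are hemizygous for a mutant human tau transgene (MAPT) under the Camk2a promoter. The labels gave the strain of every mouse as C57BL/6J, and all mice were male according to the methods of the study. The Thy1 promoter is active mainly in neurons, so that transgene RNA is made there and not in every cell that uses the mouse gene, and mice of this kind form amyloid plaques without tau tangles.

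Amyloid plaques gather microglia, the phagocytes of the brain, which change from a surveying state to one rich in lysosomal, lipid-handling and antigen-presenting genes. Astrocytes around plaques become reactive, with thicker processes built on intermediate filaments, while the cells of myelin, vessels and synapses lie in the same tissue and are affected in ways that differ between models. In a piece of whole tissue, a change in the number of cells of a type and a change in RNA per cell cannot be told apart.

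The genes whose reads the transgene can share were looked at first. App, the amyloid precursor protein gene (ENSMUSG00000022892.11, chromosome 16, 84949685 to 85173766 of GRCm38), was at 1828, 1581 and 1219 TPM in HO-TASTPM mice 97, 113 and 154, against a lowest value of 422, a median of 454 and a highest value of 476 TPM in wild-type mice. Thy1 (chromosome 9, 44043384 to 44048579) was at 3672, 3585 and 3123 TPM in HO-TASTPM mice, against 370, 412 and 442 TPM as the lowest, median and highest wild-type values. All 3 HO-TASTPM mice were far above every wild-type mouse for both genes, and mouse and transgene reads were not separated.

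Some properties of the libraries moved with the groups. All 3 HO-TASTPM libraries of 18 months carried lane number 3 in their labels, and so did 3 of the 7 wild-type libraries, which allowed the comparison to be repeated within that number (a lane number covers more than 1 run). A score of neighbouring-region genes minus hippocampal excitatory neuron genes, used here as a measure of tissue composition, lay between 0.43 and 0.83 in HO-TASTPM mice and between -0.55 and 0.18 in wild-type mice, so that the groups did not overlap. All 20 hippocampal excitatory neuron genes were measured, with a summed level of 716, 618 and 643 TPM in the HO-TASTPM mice and 703 to 907 TPM in wild-type mice. Choroid plexus and ependyma genes summed to 101, 3548 and 3751 TPM in HO-TASTPM mice 97, 113 and 154, against 104 to 14818 TPM in wild-type mice, with Ttr, the main choroid plexus transcript, at 13.7, 3357 and 3533 TPM, against 46.2 to 14042 TPM. The highest wild-type value belonged to mouse 2152. Choroid plexus RNA was unevenly present in both groups, and its part in the results was not tested.

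Most genes that differed were higher in HO-TASTPM mice. Of the 22311 genes, 2029 differed between HO-TASTPM and wild-type mice (9.09%), of which 1714 were higher (7.68%) and 315 lower (1.41%). These calls came from limma, fitted to log2(TPM + 0.5) with 1 mean for each of 24 groups of line and age, with Benjamini-Hochberg adjusted p-values over 26272 fitted genes and a threshold of 0.05. All differences below are on that log2 scale, with their standard error, and understate the change of genes near 0 TPM. Among the calls, 770 genes were higher by 1 or more and 55 lower by 1 or more. The 3 HO-TASTPM mice lay above all 7 wild-type mice in 2288 genes (10.3%) and below all of them in 1143 (5.12%). Within lane number 3 alone, with 3 mice a group, 953 genes were higher and 207 lower, and 34 of the genes described singly lost their call. The preponderance of higher genes depended on the scale and on the libraries fitted. After quantile normalization 1387 genes were higher and 1144 lower, and the median difference was -0.037, against 0.049 in the main fit. In a fit of the compared groups alone 1631 were higher and 836 lower. Without libraries of a high region score 2034 were higher and 787 lower. The median difference was 0.049 in these 2 fits as well.

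**Figure D1:**
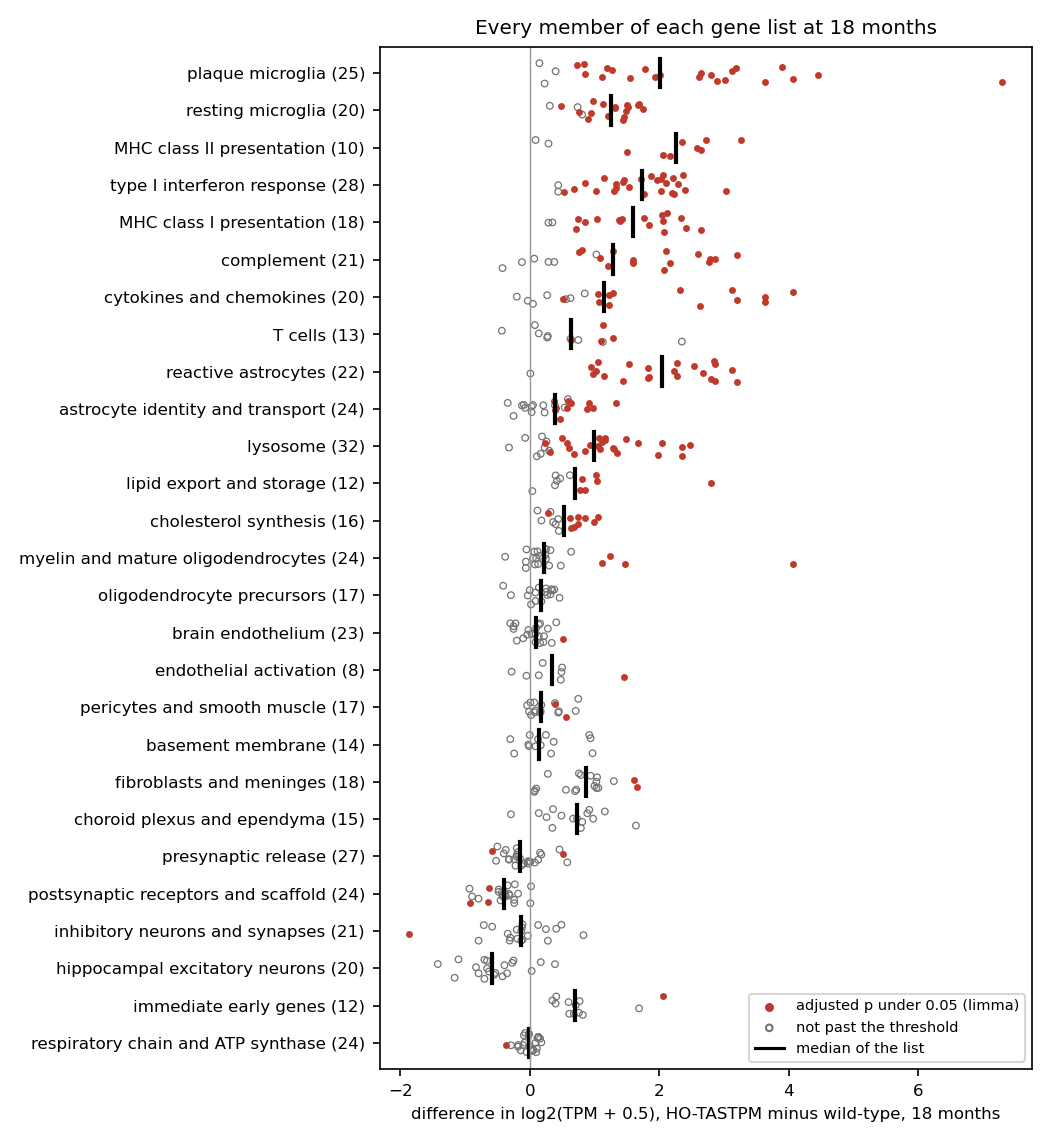
Difference in log2(TPM + 0.5) between HO-TASTPM and wild-type mice at 18 months (x axis) for every member of 27 gene lists (rows, number of members in parentheses); red points passed the limma threshold of 0.05, open points did not, and the black line is the median of the list. Microglial, antigen presentation, interferon and reactive astrocyte lists lie to the right, with medians between 1.26 and 2.26, while the medians are 0.22 for myelin, 0.09 for brain endothelium and -0.40 for postsynaptic genes.

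The largest increases were those of genes known from microglia and oligodendrocytes. Of the 10 largest positive differences among named genes whose groups did not overlap, Cst7, Lilrb4a, Ccl3, Itgax and Cd52 are genes of myeloid cells, and Klk6 encodes a protease known from oligodendrocytes. The other members of that group, Mir135a-2, n-R5s29, Mir6931 and Trbj2-3, are short genes that were listed at 0 in most or all wild-type mice, and the calls of Mir135a-2 and Trbj2-3 were lost without any HO-TASTPM mouse and that of n-R5s29 without mouse 154. Cst7, which encodes the cathepsin inhibitor cystatin F (ENSMUSG00000068129.5, chromosome 2, 150570415 to 150578944), was at 223, 184 and 155 TPM in the HO-TASTPM mice, against 0.209, 0.768 and 1.36 TPM as the lowest, median and highest wild-type values. Its difference was 7.30 ± 0.34 (limma, adjusted p = 7.75e-31), and the ratio of the group means was 255. In 2 Tau mice of 18 months Cst7 was at 144 and 232 TPM, so that such a level was not limited to HO-TASTPM mice.

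Genes of plaque microglia rose almost without exception. Of 25 list members, 22 were higher and none lower, with a median difference of 2.01 against 0.05 over all genes described, and 19 were higher within lane number 3. Trem2, the receptor that senses lipids and plaque material, was at 206, 189 and 170 TPM in HO-TASTPM mice, against 15.8, 19.9 and 27.4 TPM as the lowest, median and highest values in wild-type mice (difference 3.18 ± 0.21, limma adjusted p = 9.72e-22). Its signalling partner Tyrobp stood at 762, 689 and 597 TPM, against 72.1 to 93.4 TPM. Clec7a, a receptor of the plaque-associated state, reached 64.2, 34.5 and 41.5 TPM, against 0.369 to 3.37 TPM. None of these groups overlapped, and the HO-TASTPM values lay several times above the highest wild-type mouse. Itgax, an integrin of activated microglia, stood at 8.96, 9.32 and 10.5 TPM, against 0.0840 to 0.382 TPM. Members that did not pass included Lpl, the lipoprotein lipase gene (0.40 ± 0.30, adjusted p = 0.529), and Ank, a pyrophosphate transporter gene (0.15 ± 0.08, adjusted p = 0.329).

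Genes of resting microglia were higher as well rather than lower. Of 20 members, 17 were higher and none lower (median 1.26), and 15 were higher within lane number 3. Cx3cr1, the fractalkine receptor, was at 64.7, 51.6 and 54.9 TPM in HO-TASTPM mice, against 19.0, 20.6 and 22.5 TPM as the lowest, median and highest wild-type values (1.44 ± 0.12, limma adjusted p = 2.55e-16). Tmem119, a microglial membrane protein gene, rose by 0.94 ± 0.15 (adjusted p = 1.74e-06), and did not pass within lane number 3 (0.83, adjusted p = 0.0587). P2ry12, the nucleotide receptor lost by microglia at plaques in many accounts, was at 115, 74.6 and 81.3 TPM, against 56.2 to 68.7 TPM, so that even its lowest HO-TASTPM value lay above every wild-type mouse. Its difference of 0.49 ± 0.14 (adjusted p = 0.0166) was the smaller of these. It did not pass within lane number 3 (0.48, adjusted p = 0.247), with lane as a covariate (0.39, adjusted p = 0.109) or without mouse 97 (0.31, adjusted p = 0.328). These are levels of whole tissue, and neither the number of microglia nor the level per cell was measured here. Border macrophage and monocyte genes, a marker list for other myeloid cells, had no member of 10 described past the limma threshold. At an unadjusted p under 0.05 were 6 of them and 4989 of all 22311 genes. The summed level of the list was 11.1, 12.1 and 17.0 TPM in HO-TASTPM mice and 5.49 to 12.0 TPM in wild-type mice.

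**Figure D2:**
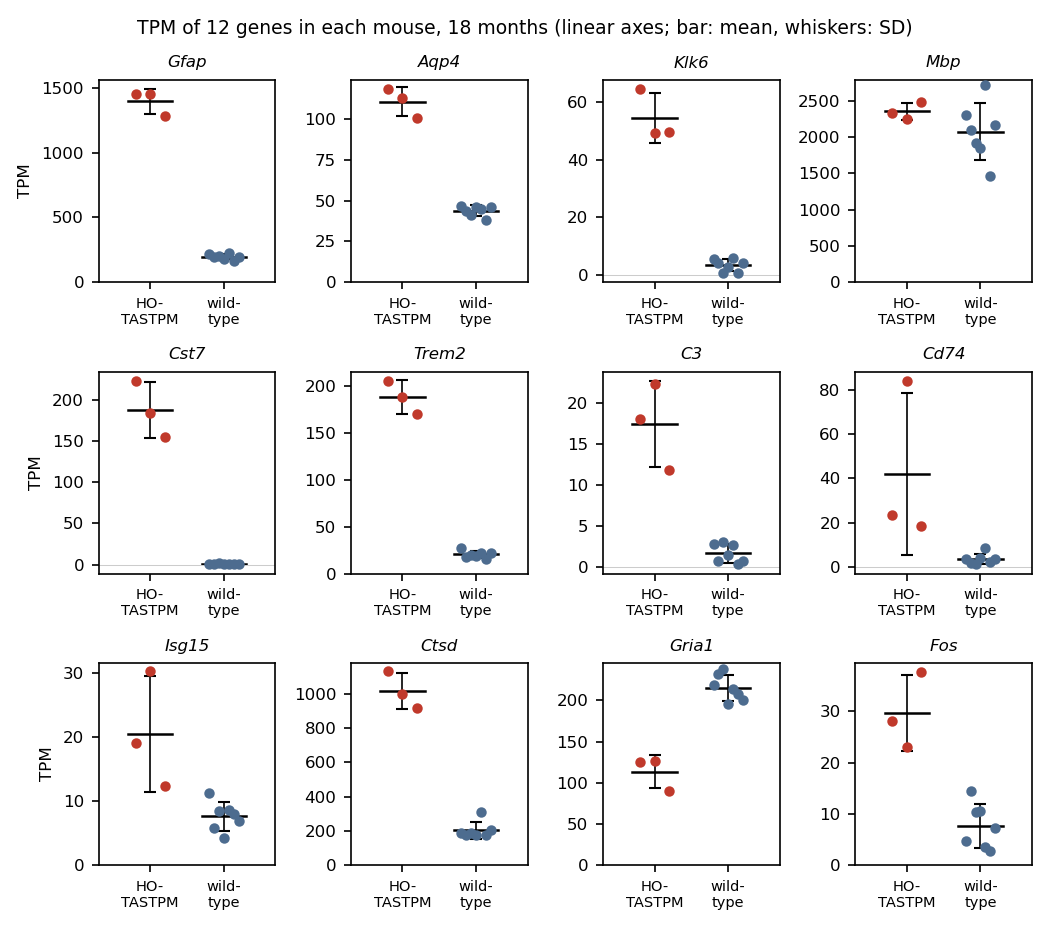
TPM (linear y axes) of 12 genes in each of 3 HO-TASTPM mice (left, red) and 7 wild-type mice (right, blue) of 18 months; horizontal bars are means and whiskers the SD over mice. The groups are apart for all genes but Mbp, and Gria1 is the only one of the 12 whose HO-TASTPM mice lie below the wild-type mice.

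Complement genes were higher, among them those of the early and central steps of the cascade. Of 21 members, 15 were higher and none lower (median 1.28), and 12 were higher within lane number 3. C1qa, a chain of the recognition molecule C1q, was at 422, 408 and 325 TPM in HO-TASTPM mice, against 44.5, 53.5 and 64.1 TPM as the lowest, median and highest wild-type values (2.79 ± 0.14, limma adjusted p = 4.16e-28). C4b, which C1 cleaves, was at 428, 456 and 406 TPM, against 44.1 to 82.1 TPM. C3, the central component (ENSMUSG00000024164.15, chromosome 17, 57203970 to 57228136), reached 18.1, 22.4 and 11.9 TPM, against 0.332 to 3.0 TPM (3.20 ± 0.41, adjusted p = 2.34e-09). The groups did not overlap for these 3 genes, and C3 did not pass within lane number 3 (3.52, adjusted p = 0.0566). Cd55, a regulator that speeds the decay of C3 convertases, did not pass, at 2.93, 3.55 and 4.51 TPM, against 3.70 to 11.6 TPM (-0.42 ± 0.27, adjusted p = 0.417).

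Antigen presentation genes of both classes were higher, with mouse 113 well above the other HO-TASTPM mice for class II. Of 18 class I members 16 were higher and none lower (median 1.60). B2m, the small invariant chain of MHC class I, was at 1084, 1095 and 833 TPM in HO-TASTPM mice, against 219, 230 and 282 TPM as the lowest, median and highest values in wild-type mice (2.05 ± 0.16, limma adjusted p = 1.35e-18). The heavy chain genes H2-K1 and H2-D1 rose by 2.12 ± 0.19 and 2.33 ± 0.21, though close relatives of these genes can share reads. Of 10 class II members 8 were higher (median 2.26), and 3 were within lane number 3. Cd74, the invariant chain of class II (chromosome 18, 60803848 to 60812652), was at 23.3, 84.3 and 18.5 TPM in mice 97, 113 and 154, against 1.16, 3.37 and 8.52 TPM (3.27 ± 0.57, adjusted p = 8.54e-06). H2-Aa, a class II chain, reached 40.9 TPM in mouse 113, and 8.86 and 7.80 TPM in mice 97 and 154, against 0.139 to 7.93 TPM in wild-type mice, so that the groups overlapped. Without mouse 113, 5 class II members were higher, and H2-Aa was not among them (1.90, adjusted p = 0.104). H2-Aa did not pass within lane number 3 (3.48, adjusted p = 0.105) or in a fit of the compared groups alone (2.64, adjusted p = 0.0666) either.

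Nearly all interferon-stimulated genes were higher. Of 28 members 26 were higher and none lower (median 1.74), and in 26 all 3 HO-TASTPM mice lay above every wild-type mouse, while 15 were higher within lane number 3. Among all genes 7.68% were higher, and in 10.3% all 3 HO-TASTPM mice lay above every wild-type mouse. Ifitm3, which blocks virus entry, was at 96.8, 123 and 115 TPM, against 12.5, 23.7 and 33.2 TPM as the lowest, median and highest wild-type values (2.29 ± 0.24, limma adjusted p = 1.00e-12). Oas1a, a sensor of double-stranded RNA, was at 3.69, 5.75 and 3.32 TPM, against 0.174 to 1.16 TPM (2.40 ± 0.23, adjusted p = 8.01e-14). Members of its family are alike in sequence and can share reads. Isg15, the ubiquitin-like modifier, was at 19.0, 30.2 and 12.3 TPM, against 4.27 to 11.3 TPM (1.34 ± 0.28, adjusted p = 3.10e-04), and Irf7, the regulator that amplifies the response, at 4.73, 11.5 and 5.10 TPM, against 0.707 to 3.52 TPM. Mouse 113 had the highest value for all 4 of these genes, and Isg15 and Irf7 did not pass within lane number 3 (adjusted p = 0.132 and 0.0910).

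Promoters of these genes are shown because the list moved together and many members hold a known sequence element. The interferon and lysosomal lists were chosen by known function, so a high share of such elements in them is no separate result. The element searched was GAAANNGAAA, on both strands, the core of the site bound by interferon regulatory factors, in the 300 bases around each RefSeq start of build GRCm38.p6. It was present in 13 of the 19 interferon members with a promoter entry (68.4%) and in 514 of 13274 entries over all genes described (3.87%). In class I genes it was found in 4 of 16 (25%), and in reactive astrocyte genes in 4 of 19 (21.1%). Cytokine and chemokine genes held it in 3 of 15 (20%), and in the other lists searched the share lay between 7.14% and 14.3%. For lysosomal genes the box searched was CACGTG, the core of the box bound by factors of the TFEB family, present in 11 of 26 (42.3%), against 1413 of 13274 (10.6%). Adjacent matches can overlap, and neither element contains the other. Each line below gives the 170 bases before the start, read 5′ to 3′ on the strand of the gene, with matches in capitals, which in Ifit3 stand on the other strand and so appear as the reverse complement. The windows are Isg15, chr4:156200819-156200988 on the minus strand, Oas1a, chr5:120907526-120907695 on the minus strand, Ifit3, chr19:34583359-34583528 on the plus strand, B2m, chr2:122147517-122147686 on the plus strand, and Lamp1, chr8:13158991-13159160 on the plus strand.
Isg15: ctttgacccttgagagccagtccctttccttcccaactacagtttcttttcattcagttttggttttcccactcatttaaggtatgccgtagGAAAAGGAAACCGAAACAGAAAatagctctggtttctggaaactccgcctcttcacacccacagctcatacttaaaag
Oas1a: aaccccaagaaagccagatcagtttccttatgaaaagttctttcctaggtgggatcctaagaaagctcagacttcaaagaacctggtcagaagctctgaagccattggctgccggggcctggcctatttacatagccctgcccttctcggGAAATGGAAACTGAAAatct
Ifit3: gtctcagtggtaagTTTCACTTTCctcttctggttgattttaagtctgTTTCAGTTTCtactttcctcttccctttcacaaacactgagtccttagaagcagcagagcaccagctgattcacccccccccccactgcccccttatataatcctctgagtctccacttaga
B2m: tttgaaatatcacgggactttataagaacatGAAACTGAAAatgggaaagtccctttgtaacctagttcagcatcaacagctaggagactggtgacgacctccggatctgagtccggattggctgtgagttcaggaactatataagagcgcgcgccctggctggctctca
Lamp1: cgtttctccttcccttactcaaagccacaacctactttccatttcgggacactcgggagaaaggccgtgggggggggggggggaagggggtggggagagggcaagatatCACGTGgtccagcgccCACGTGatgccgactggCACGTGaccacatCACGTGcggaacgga

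The Isg15 window holds 3 overlapping matches, the nearest 66 bases before the start, Oas1a and Ifit3 hold 2 each, and B2m holds 1, at 139 bases before the start. Ifit3, which binds viral RNA with its relatives, was at 26.4, 41.4 and 25.1 TPM in HO-TASTPM mice, against 5.45, 6.12 and 14.4 TPM as the lowest, median and highest wild-type values (1.96 ± 0.25, limma adjusted p = 1.81e-09). The Lamp1 window holds 4 matches of the CACGTG box. A match describes the letters only, and binding was not measured.

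Of 26 cytokine and chemokine genes 20 were described, 13 of them higher and none lower (median 1.15), with 7 higher within lane number 3 and 12, 11 and 12 without mouse 97, 113 or 154. Ccl3, a chemokine that draws leukocytes, was at 29.7, 23.9 and 26.6 TPM, against 0.685, 1.23 and 1.5 TPM as the lowest, median and highest wild-type values (4.06 ± 0.50, limma adjusted p = 4.89e-10). Cxcl13, which attracts B cells, was at 1.26, 13.1 and 1.75 TPM in mice 97, 113 and 154, against 0 to 0.214 TPM, and it did not pass within lane number 3 (2.63, adjusted p = 0.184). Cxcl9, an interferon-gamma chemokine, was at 0.334, 6.62 and 0.236 TPM, against 0.0638 to 0.401 TPM, so that mouse 113 alone stood apart, and without it the difference was 0.23 (adjusted p = 0.719), and within lane number 3 it did not pass (1.40, adjusted p = 0.513).

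Of 22 T cell genes 13 were described and 4 were higher, where 7.68% of all genes were. Cd3e, a chain of the T cell receptor complex, was at 0.435, 1.55 and 0.491 TPM, against 0 to 0.262 TPM (1.13 ± 0.30, limma adjusted p = 0.00624), and within lane number 3 its adjusted p was 0.136. Without mouse 113 the adjusted p of Cd3e was 0.219 and 1 of the T cell genes was higher. The mean over the T cell list, relative to the wild-type median, was 0.59, 1.07 and 0.66 in mice 97, 113 and 154, and the same mean over the interferon list was 1.49, 1.98 and 1.43. Ighm, the heavy chain of IgM, was at 42.1, 39.8 and 44.8 TPM, against 9.68, 16.6 and 26.9 TPM as the lowest, median and highest wild-type values (1.22 ± 0.35, adjusted p = 0.0165). It was the only one of 7 B cell and plasma cell genes described that passed, where 7.68% of all genes were higher. Its call was lost within lane number 3 (adjusted p = 0.135) and without any HO-TASTPM mouse (0.0553 to 0.0908).

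**Figure D3:**
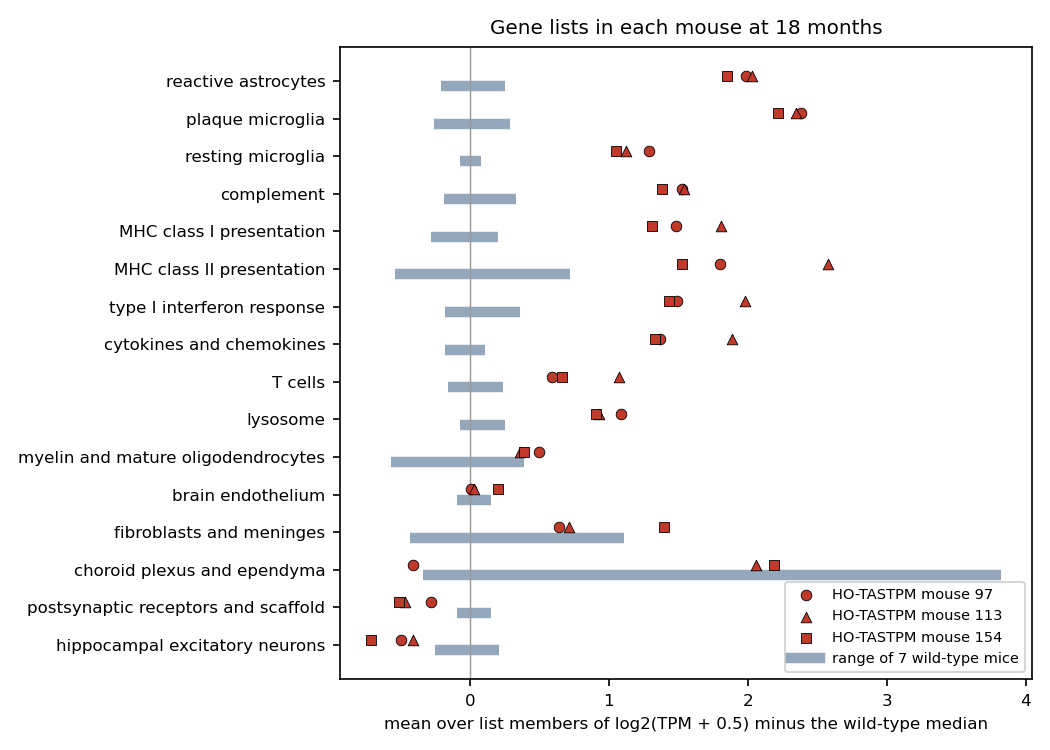
Mean over the members of each gene list of log2(TPM + 0.5) minus the wild-type median (x axis) in HO-TASTPM mice 97, 113 and 154 (red symbols), above the range of 7 wild-type mice (blue bars) of 18 months. Mouse 113 lies apart from the other HO-TASTPM mice for class II (2.58 against 1.80 and 1.53), interferon and T cell genes, and the choroid plexus list is at 2.06 and 2.19 in mice 113 and 154 and at -0.41 in mouse 97.

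Reactive astrocyte genes rose nearly as a whole. Of 22 members 21 were higher and none lower (median 2.04), and 16 were higher within lane number 3. Some genes stand in more than 1 list, as C4b does here and among complement genes, so the counts of lists are not independent. Whole tissue does not show which cells made the RNA of each member. Gfap, the astrocyte intermediate filament (ENSMUSG00000020932.14, chromosome 11, 102887336 to 102900912), was at 1457, 1457 and 1287 TPM in HO-TASTPM mice, against 163, 195 and 222 TPM as the lowest, median and highest wild-type values (2.84 ± 0.23, limma adjusted p = 1.19e-17). In 2 Tau mice of 18 months Gfap was at 2565 and 3361 TPM, above every HO-TASTPM mouse of that age. Vim, its partner filament, was at 261, 229 and 192 TPM, against 23.4 to 53.1 TPM. Both genes were higher in every HO-TASTPM mouse, with group means 7.13 and 6.76 times those of wild-type mice. The protease inhibitor gene Serpina3n was at 228, 211 and 167 TPM, against 21.7 to 35.8 TPM. S1pr3, a receptor for sphingosine 1-phosphate (chromosome 13, 51408639 to 51422797), was at 15.3, 14.7 and 12.6 TPM, against 2.02 to 2.79 TPM (2.28 ± 0.14, adjusted p = 2.00e-24), the smallest p-value of the list. Stat3, a transcription factor of the reactive state, was higher by 0.97 ± 0.15 (adjusted p = 1.06e-06). Cxcl10 and Gbp2, which respond to interferon, were again highest in mouse 113, at 25.5 and 20.8 TPM, and did not pass within lane number 3 (adjusted p = 0.143 and 0.0811). Emp1, a membrane protein gene, was the exception (0.01 ± 0.25, adjusted p = 1.0).

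Astrocyte identity and transport genes were split. Of 24 members 11 were higher, none lower and 13 did not pass (median 0.39), with 9 higher within lane number 3. Aqp4, the water channel of astrocyte endfeet, was at 119, 113 and 101 TPM, against 38.0, 45.0 and 47.0 TPM as the lowest, median and highest wild-type values (1.33 ± 0.16, limma adjusted p = 4.29e-10). Mlc1, another endfoot membrane protein, rose by 0.88 ± 0.11 (adjusted p = 1.05e-09), and Sox9, the astrocyte transcription factor, by 0.91 ± 0.14 (adjusted p = 6.39e-07). Aldh1l1, a folate enzyme used as an astrocyte marker, was at 30.2, 26.8 and 34.9 TPM, against 12.6 to 19.2 TPM. Several genes of transmitter uptake and recycling did not pass. The main glutamate transporter gene Slc1a2 was at 369, 296 and 389 TPM, against 369, 411 and 472 TPM (-0.25 ± 0.17, adjusted p = 0.458), and Glul, glutamine synthetase, at 832, 820 and 935 TPM, against 795 to 949 TPM (0.03 ± 0.08, adjusted p = 0.922). Ndrg2, a further astrocyte gene, had a difference of 0.03 ± 0.14 (adjusted p = 0.982). Slc1a3, the other glutamate transporter, was higher by 0.39 ± 0.13 (adjusted p = 0.0407), S100b, a calcium-binding protein, by 0.63 ± 0.19 (adjusted p = 0.0222), and Kcnj10, the potassium channel of astrocytes, fell short of the threshold at 0.59 ± 0.20 (adjusted p = 0.0576) but passed with lane as a covariate (0.81, adjusted p = 0.00784). The calls of Slc1a3 and S100b were lost when any HO-TASTPM mouse was left out, and that of Slc1a3 without wild-type mouse 1151, 1161, 2152 or 2153. Slc1a3 did not pass with lane as a covariate either (0.37, adjusted p = 0.0798). Without mouse 97, 113 or 154, 8, 7 and 6 members were higher.

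Lysosomal genes were raised across enzymes and membrane proteins. Of 32 members 24 were higher and none lower (median 1.0), and 21 were higher within lane number 3. Ctsd, the aspartic protease of lysosomes (chromosome 7, 142375911 to 142388038), was at 1133, 1002 and 920 TPM, against 174, 189 and 312 TPM as the lowest, median and highest wild-type values (2.35 ± 0.13, limma adjusted p = 7.51e-26). Ctss, the cysteine protease of antigen-presenting cells, rose by 2.35 ± 0.14 (adjusted p = 3.61e-25), and Lamp1, a membrane protein of lysosomes in all cells, by 0.58 ± 0.11 (adjusted p = 4.49e-05). The groups did not overlap for these 3 genes.

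Lipid genes rose on both the export and the synthesis side. Of 12 lipid export and storage members 6 were higher and none lower (median 0.69), and of 16 cholesterol synthesis members 9 were higher and none lower (median 0.54), of which 4 were within lane number 3. Apoe, the chief apolipoprotein of brain tissue, was at 5647, 5728 and 5681 TPM, against 2820, 3104 and 3494 TPM as the lowest, median and highest wild-type values (0.85 ± 0.10, limma adjusted p = 8.97e-11), and it did not pass within lane number 3 (0.85, adjusted p = 0.106) or after quantile normalization (0.33, adjusted p = 0.282). Abca1, the transporter that loads lipid onto it, rose by 1.04 ± 0.17 (adjusted p = 1.74e-06). On the synthesis side Mvd, a mevalonate pathway enzyme, was at 26.9, 22.6 and 20.4 TPM, against 8.88 to 15 TPM (0.99 ± 0.14, adjusted p = 6.73e-08).

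The myelin sheath genes Mbp and Mog did not pass the test, while 4 other genes of the myelin list were higher. Of 24 members 4 were higher, none lower and 20 did not pass (median 0.22), where 7.68% of all genes were higher. The same count of 4 was higher within lane number 3. Mbp, myelin basic protein, was at 2325, 2251 and 2482 TPM in HO-TASTPM mice, against 1456, 2098 and 2723 TPM as the lowest, median and highest wild-type values (0.20 ± 0.27, limma adjusted p = 0.785). Mog, on the outer face of the sheath, had a difference of 0.13 ± 0.27 (adjusted p = 0.894). The groups overlapped for both sheath genes, and the sign of Mbp turned after quantile normalization (-0.03). Klk6 (ENSMUSG00000050063.18, chromosome 7, 43824499 to 43832030) was at 64.4, 49.2 and 49.7 TPM, against 0.701, 4.00 and 6.01 TPM (4.07 ± 0.61, adjusted p = 2.08e-07), a ratio of means of 16.1. Apod, a lipid carrier, was at 777, 612 and 713 TPM, against 184 to 349 TPM (1.47 ± 0.29, adjusted p = 9.29e-05). Trf, transferrin, was at 948, 798 and 785 TPM, against 250 to 644 TPM (1.24 ± 0.30, adjusted p = 0.00299), and Gsn, gelsolin, rose by 1.12 ± 0.18 (adjusted p = 2.42e-06). These 4 genes were each above every wild-type mouse. Of 17 genes of oligodendrocyte precursors and newly formed oligodendrocytes none passed in limma (median 0.18). At an unadjusted p under 0.05 were 4 of them and 4989 of all 22311 genes.

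Of 23 brain endothelium genes 1 was higher and none lower (median 0.09), where 7.68% of all genes were higher and 1.41% lower. Cldn5, the tight junction claudin, was at 41.0, 36.6 and 45.8 TPM, against 32.4, 36.5 and 42.4 TPM as the lowest, median and highest wild-type values (0.14 ± 0.14, limma adjusted p = 0.658), and Pecam1, an adhesion molecule of endothelium, at 7.57, 7.78 and 8.61 TPM, against 7.29 to 10.5 TPM (-0.10 ± 0.14, adjusted p = 0.819). The groups overlapped for both genes. Podxl, a sialomucin of the luminal face, was the gene that passed (0.51 ± 0.16, adjusted p = 0.0370), and its call was lost within lane number 3 (0.64, adjusted p = 0.302) and without HO-TASTPM mouse 97 or 154 or wild-type mouse 1161 (adjusted p = 0.0926, 0.301 and 0.132). Icam1, the leukocyte adhesion receptor that endothelium and glia share, was at 8.50, 8.08 and 6.72 TPM, against 2.01, 2.48 and 4.18 TPM (1.45 ± 0.19, adjusted p = 8.71e-09), and was the only one of 8 endothelial activation genes described that passed. Vcam1, its relative, did not (0.48 ± 0.25, adjusted p = 0.277), with wild-type mouse 2152, the one with most choroid plexus RNA, at 28.7 TPM and above all 3 HO-TASTPM mice. Within lane number 3 Vcam1 did pass (0.96, adjusted p = 0.00532).

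Of 17 pericyte and smooth muscle genes described 2 were higher, where 7.68% of all genes were. They were Pdgfrb, the growth factor receptor of pericytes (0.39 ± 0.11, limma adjusted p = 0.0149), and Notch3, a receptor of smooth muscle (0.56 ± 0.18, adjusted p = 0.0302), and neither passed within lane number 3 (adjusted p = 0.196 and 0.0729). Pdgfrb was also lost without HO-TASTPM mouse 154 or 97 or wild-type mouse 1161, and Notch3 without any of the HO-TASTPM mice or without wild-type mouse 1151 or 1161. Acta2, the actin of smooth muscle, had a difference of 0.39 ± 0.27 (adjusted p = 0.474). Of 14 basement membrane genes none passed in limma. At an unadjusted p under 0.05 were 3 of them and 4989 of all 22311 genes. The 3 included Sparc, a matrix protein that is also made by glia. It was at 246, 247 and 238 TPM, against 113, 129 and 142 TPM as the lowest, median and highest wild-type values. Sparc did not overlap between the groups, but did not pass in the fit over all 24 groups (0.92 ± 0.35, adjusted p = 0.0961). It passed within lane number 3 (1.0, adjusted p = 0.00472) and in a fit of the compared groups alone (0.92, adjusted p = 3.90e-05).

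All 18 genes of fibroblasts and meninges had positive differences, and the list as a whole was highest in mouse 154. Of 18 members 2 were higher, where 7.68% of all genes were, and 16 did not pass, and the median was 0.86. Aebp1, a collagen-binding protein (chromosome 11, 5861947 to 5872088), was at 16.9, 14.3 and 20.9 TPM, against 3.84, 4.64 and 9.61 TPM as the lowest, median and highest wild-type values (1.66 ± 0.33, limma adjusted p = 1.32e-04). Fmod, fibromodulin, was at 8.26, 4.99 and 13.7 TPM, against 0.950 to 3.76 TPM (1.61 ± 0.50, adjusted p = 0.0280), and its call was lost within lane number 3 (2.08, adjusted p = 0.0925), without HO-TASTPM mouse 97 or 154 (0.0877 and 0.279) and without wild-type mouse 1151 or 1161 (0.0506 and 0.0690). Ptgds, a prostaglandin synthase of meninges, was at 1657, 1293 and 3280 TPM in mice 97, 113 and 154, against 393 to 1314 TPM (1.30 ± 0.47, adjusted p = 0.0771), and Col1a2, a fibrillar collagen chain, at 3.88, 2.62 and 6.65 TPM, against 1.05 to 5.08 TPM. The summed level of the list was 1893, 1566 and 3691 TPM in HO-TASTPM mice and 513 to 1908 TPM in wild-type mice, so that this marker list was high in HO-TASTPM mice with some overlap. The part of meningeal tissue in the result was not tested.

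Postsynaptic genes leaned lower. Of 24 glutamate receptor and scaffold genes 3 were lower and none higher, the median was -0.40, and in 14 all 3 HO-TASTPM mice lay below every wild-type mouse. Among all genes 1.41% were lower, and in 5.12% all 3 HO-TASTPM mice lay below every wild-type mouse. Gria1, a subunit of AMPA receptors (ENSMUSG00000020524.16, chromosome 11, 57011387 to 57330244), was at 125, 126 and 89.8 TPM, against 196, 214 and 238 TPM as the lowest, median and highest wild-type values (-0.93 ± 0.29, limma adjusted p = 0.0265). Gria2, the subunit that keeps these receptors impermeable to calcium, was at 205, 183 and 176 TPM, against 259 to 333 TPM (-0.65 ± 0.21, adjusted p = 0.0410). Grm5, a metabotropic receptor, was at 60.5, 49.1 and 42.7 TPM, against 68.2 to 83.6 TPM (-0.63 ± 0.21, adjusted p = 0.0465). Each of the 3 was below all wild-type mice. Grin2b, an NMDA receptor subunit, was at 29.8, 21.9 and 24.1 TPM, against 43.7 to 53.0 TPM, yet did not pass (-0.93 ± 0.33, adjusted p = 0.0631). Nor did Camk2a, the kinase of the postsynaptic density (-0.48 ± 0.39, adjusted p = 0.574), or Dlg4, its main scaffold (-0.32 ± 0.14, adjusted p = 0.180).

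The postsynaptic counts varied between the fits. The list had 7 lower genes within lane number 3, 10 with lane as a covariate, 14 in a fit of the compared groups alone and 1 with the region score as a covariate. Grin2b and Camk2a passed within lane number 3 (adjusted p = 0.0250 and 0.0481), where Grm5 did not (0.0956). With the region score Gria1 alone kept its call, the adjusted p being 0.107 for Gria2 and 0.129 for Grm5, and the list median was -0.24. Gria1 and Gria2 were each lost when any HO-TASTPM mouse was left out (adjusted p from 0.0531 to 0.233 and from 0.0702 to 0.195). Grm5 was lost without mouse 113 or 154 (0.154 and 0.309), Gria2 without wild-type mouse 1145, 1151, 1161, 2098 or 2155 (0.0514 to 0.0689), and Grm5 without wild-type mouse 1145, 1161, 2098, 2153 or 2155 (0.0609 to 0.0684). The 20 hippocampal excitatory neuron genes, which make up part of that score, had a median of -0.59, and none passed in limma. At an unadjusted p under 0.05 were 5 of them and 4989 of all 22311 genes. The list held Prox1 of granule cells, at 12.2, 14.8 and 10.6 TPM, against 16.3 to 31.9 TPM (-0.79 ± 0.41, adjusted p = 0.279). The part of tissue composition in these differences was not tested beyond these values.

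Presynaptic, inhibitory and peptide genes differed in single members only in the fit over all 24 groups. In a fit of the compared groups alone, 4 presynaptic, 3 inhibitory and 3 peptide genes were lower. In that fit 1 presynaptic and 1 inhibitory gene were higher. Of 27 presynaptic genes 1 was higher and 1 lower in the main fit (median -0.15). Over all genes 7.68% were higher and 1.41% lower. Syngr1, a synaptic vesicle protein, rose by 0.51 ± 0.11 (limma adjusted p = 5.38e-04), while Nrxn3, a presynaptic adhesion receptor, was at 37.9, 29.6 and 29.7 TPM, against 43.9, 47.6 and 54.0 TPM as the lowest, median and highest wild-type values (-0.58 ± 0.14, adjusted p = 0.00148), and neither passed within lane number 3. Of 21 inhibitory neuron genes only Cort, the peptide cortistatin (chromosome 4, 149125034 to 149126763), was lower, at 4.52, 3.03 and 5.30 TPM, against 13.1, 15.7 and 20.8 TPM (-1.86 ± 0.53, adjusted p = 0.0137), and it was lost without mouse 113 (-1.66, adjusted p = 0.112). Sst, the related peptide somatostatin, was at 283, 234 and 290 TPM, against 351 to 560 TPM, and did not pass (-0.79 ± 0.28, adjusted p = 0.0740), though it did with lane as a covariate (-0.94, adjusted p = 0.0179). Vgf, a granule peptide precursor that follows neuronal activity, was at 58.0, 39.5 and 55.0 TPM, against 61.9, 79.3 and 87.5 TPM (-0.63 ± 0.17, adjusted p = 0.00689), and was lost without mouse 113 (-0.46, adjusted p = 0.184). In the respiratory chain list 1 of 24 genes was lower, where 1.41% of all genes were: Ndufs1 of complex I (-0.36 ± 0.08, adjusted p = 0.00104). Neither Vgf nor Ndufs1 passed within lane number 3 (adjusted p = 0.103 and 0.0726).

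Fos, an immediate early gene (ENSMUSG00000021250.13, chromosome 12, 85473890 to 85477273), was at 28.1, 23.1 and 37.7 TPM in HO-TASTPM mice, against 2.69, 7.21 and 14.4 TPM as the lowest, median and highest wild-type values (2.06 ± 0.41, limma adjusted p = 1.21e-04). It was the only one of 12 immediate early genes to pass, where 7.68% of all genes were higher. All 12 had positive differences (median 0.70), and within lane number 3 Fos did not pass (1.88, adjusted p = 0.202).

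Among the 10 largest decreases of named genes were Tmem132b and mt-Nd3, which fell by about the same amount. Tmem132b, a transmembrane protein gene (ENSMUSG00000070498.3, chromosome 5, 125531774 to 125792583), was at 6.99, 7.13 and 7.77 TPM in HO-TASTPM mice, against 28.3, 30.0 and 31.3 TPM as the lowest, median and highest wild-type values (-1.97 ± 0.22, limma adjusted p = 1.82e-11). mt-Nd3, a subunit of complex I encoded in mitochondrial DNA (9459 to 9806 of the mitochondrial genome), was at 4111, 3419 and 4987 TPM, against 15106, 18591 and 20432 TPM (-2.10 ± 0.22, adjusted p = 3.0e-12). Of the 9 other mitochondrial transcripts listed only mt-Nd1, a subunit of the same complex, was lower (-0.37 ± 0.10, adjusted p = 0.0122), and its sign turned after quantile normalization (0.09). The mt-Nd1 call was lost within lane number 3 (-0.28, adjusted p = 0.999), in a fit of the compared groups alone (-0.37, adjusted p = 0.851) and without mouse 97 (adjusted p = 0.0897), and mt-Nd3 did not pass within lane number 3 (-2.16, adjusted p = 0.191).

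Neither decrease was limited to 18 months. Over 2, 4, 8 and 18 months together Tmem132b lay between 4.95 and 19.9 TPM in 15 HO-TASTPM mice (median 7.76), between 13.5 and 25.8 TPM in 16 HET-TASTPM mice (median 16.4), and between 20.2 and 35.3 TPM in 31 wild-type mice (median 27.7). In TAS10 mice, which carry the APP transgene alone, it was at 22.1 to 28.4 TPM (n = 13), inside the wild-type range. In Tau mice the median was 26.5 TPM and the highest value 35.1 TPM (n = 14), and the lowest value lay below every wild-type mouse. mt-Nd3 lay between 3419 and 8859 TPM in HO-TASTPM mice, between 3133 and 25858 TPM in HET-TASTPM mice and between 14163 and 23116 TPM in wild-type mice. HO-TASTPM and wild-type mice did not overlap at any age for either gene, and in HET-TASTPM mice mt-Nd3 was low at 18 months (3133 to 7375 TPM) and lay between 13086 and 18296 TPM at 4 months.

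**Figure D4:**
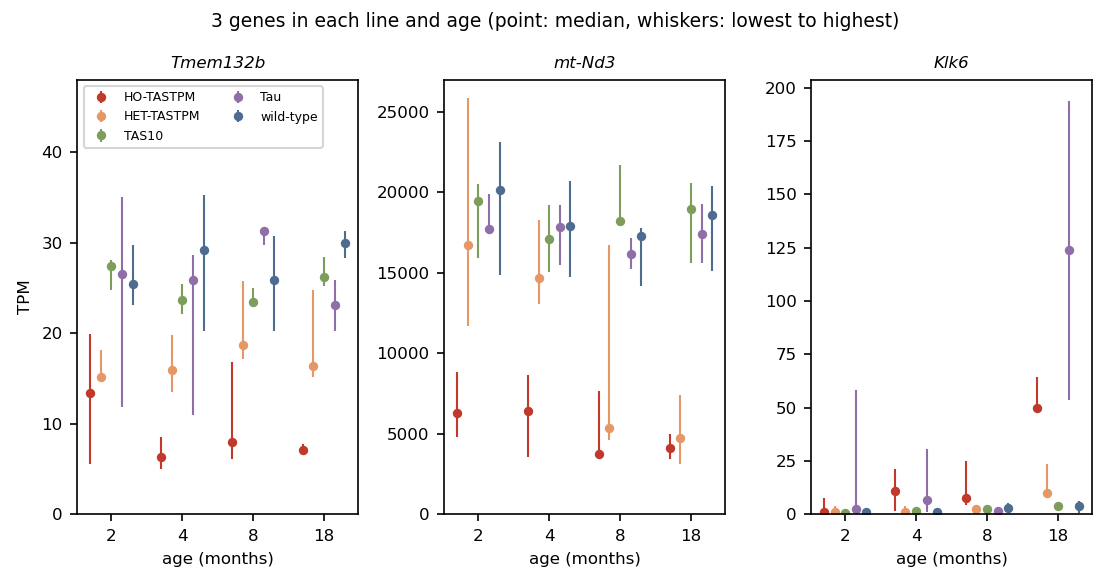
TPM (linear y axes) of Tmem132b, mt-Nd3 and Klk6 at 2, 4, 8 and 18 months (x axis) in HO-TASTPM, HET-TASTPM, TAS10, Tau and wild-type mice; points are medians and whiskers run from the lowest to the highest mouse. Tmem132b and mt-Nd3 are low in HO-TASTPM mice at every age, whereas Klk6 reaches 49.2 to 64.4 TPM in HO-TASTPM mice only at 18 months and has a median of 124 TPM in 2 Tau mice of that age.

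The other genes of that group were Mir181c, mt-Ts2, Cort, Runx2os1, Onecut1, Ndst4, Nhlh1 and Epha6. Ndst4, an enzyme of heparan sulfate, was at 2.63, 4.34 and 2.55 TPM, against 7.20, 9.90 and 12.3 TPM as the lowest, median and highest wild-type values (-1.53 ± 0.34, limma adjusted p = 5.83e-04). Onecut1, a transcription factor gene, was at 0.270, 0.279 and 0.551 TPM, against 1.67 to 3.02 TPM (-1.61 ± 0.27, adjusted p = 4.88e-06). Epha6, an ephrin receptor of neurons, was at 8.82, 8.07 and 7.27 TPM, against 16.2 to 24.8 TPM (-1.31 ± 0.43, adjusted p = 0.0394), and its call was lost without any HO-TASTPM mouse and without wild-type mouse 1151, 1161, 2152 or 2155. Mir181c and mt-Ts2 are short genes that were listed at 0 in all 3 HO-TASTPM mice and lay between 6.81 and 18.4 TPM and between 3.95 and 25.1 TPM in wild-type mice. The call of mt-Ts2 was lost without any HO-TASTPM mouse and with lane as a covariate (adjusted p = 0.0517). Those of Nhlh1 and Runx2os1 were lost without mouse 97 and within lane number 3 (adjusted p = 0.149 and 0.205).

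Whether the difference at 18 months was larger than that at 8 months was tested with the mice of both ages. Of the 22311 genes, 296 changed in this sense (1.33%), 262 with a more positive difference at 18 months (1.17%) and 34 with a more negative one (0.152%). The count was 51 when only these 4 groups were fitted, and leaving out 1 mouse at a time gave 97 (without HO-TASTPM mouse 154) to 436 (without wild-type mouse 2417 of 8 months). Without libraries of a region score above 1.5, 135 were more positive and 105 more negative, and after quantile normalization 171 and 96. At 8 months that score reached 4.26 in HO-TASTPM mouse 452 and 2.34 in wild-type mice. Of the genes that differed from wild-type mice at 18 months, 147 were among the 296, 130 higher with a larger difference and 17 lower with a more negative one.

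The lists of plaque microglia, resting microglia and reactive astrocytes had positive medians at 8 months already, and few of their members passed the test of a change between the ages. For plaque microglia the median difference was 1.70 at 8 months and 2.01 at 18 months, and for reactive astrocytes it was 1.40 at 8 months and 2.04 at 18 months. For resting microglia it was 1.37 at 8 months and 1.26 at 18 months, and 4 of 20 changes were positive. No plaque microglia gene, no resting microglia gene and 1 reactive astrocyte gene passed for the change in limma. At an unadjusted p under 0.05 there were 3 of 25, 9 of 20 and 7 of 22, beside 3176 of all 22311 genes. The reactive astrocyte gene, S1pr3, was at 3.56 to 9.38 TPM in HO-TASTPM mice of 8 months and 1.88 to 2.75 TPM in wild-type mice of 8 months, and its difference was larger at 18 months by 1.0 (limma adjusted p = 0.00157). Aldh1l1 was at 18.3 to 28.0 TPM at 8 months in HO-TASTPM mice, against 16.7 to 26.9 TPM, and its difference grew by 0.77 (adjusted p = 0.0364), which was lost without HO-TASTPM mouse 97 or 154 of 18 months, without mouse 453 of 8 months and without 5 of the 15 wild-type mice. For Cxcl13 the difference grew by 1.68 (adjusted p = 0.0301), and by 0.75 (adjusted p = 0.459) without mouse 113. Ccl9, a myeloid chemokine, changed the other way and was at 3.39 to 9.13 TPM in HO-TASTPM mice of 8 months, against 0.676 to 1.51 TPM, and at 2.32, 2.31 and 1.67 TPM at 18 months, against 1.10 to 1.42 TPM (-1.41, adjusted p = 0.00347). The median of class II genes was 0.85 at 8 months and 2.26 at 18 months, with no member past the limma threshold for the change and 4 of 10 at an unadjusted p under 0.05.

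Immediate early genes leaned lower at 8 months and higher at 18 months. The 12 immediate early genes had a median of -0.94 at 8 months and 0.70 at 18 months, and 4 of them changed, where 1.33% of all genes did. Fos was at 9.84 to 17.2 TPM in HO-TASTPM mice of 8 months, against 14.9 to 48.1 TPM, and its difference grew by 3.08 (limma adjusted p = 9.27e-04). The wild-type level itself was lower at 18 months than at 8 months, with medians of 7.21 and 28.3 TPM. Egr1, an early growth response factor, and Dusp1, a phosphatase of the same response, grew by 2.09 and 1.95 (adjusted p = 0.0327 and 0.0166), and both calls were lost without HO-TASTPM mouse 154 (0.119 and 0.0914). Of the genes with the largest changes, Trbj2-3, Trbc2, Fos, Ovol2 and Cckbr became more positive, and Mir181c, Epyc, Rem2, Gng7 and Onecut1 more negative. Cckbr, a cholecystokinin receptor, was at 18.1, 10.1 and 20.2 TPM in HO-TASTPM mice of 18 months, against 3.05 to 10.1 TPM, and at 2.16 to 8.76 TPM at 8 months, against 6.29 to 34.5 TPM (2.81, adjusted p = 0.0209). Trbc2, a constant segment of the T cell receptor, was at 5.29, 2.53 and 8.15 TPM in HO-TASTPM mice of 18 months, against 0 to 1.57 TPM, while at 8 months it was at 0 to 5.90 TPM, against 0.205 to 41.4 TPM (4.50, adjusted p = 0.0403). The calls of Cckbr and Trbc2 were lost without HO-TASTPM mouse 97 or 154. Gng7, a G protein subunit rich in striatum, reached 355 TPM in HO-TASTPM mouse 452 of 8 months, the one with the highest region score, and its change of -1.66 (adjusted p = 0.0271) was -1.08 (adjusted p = 0.129) without that library.

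**Figure D5:**
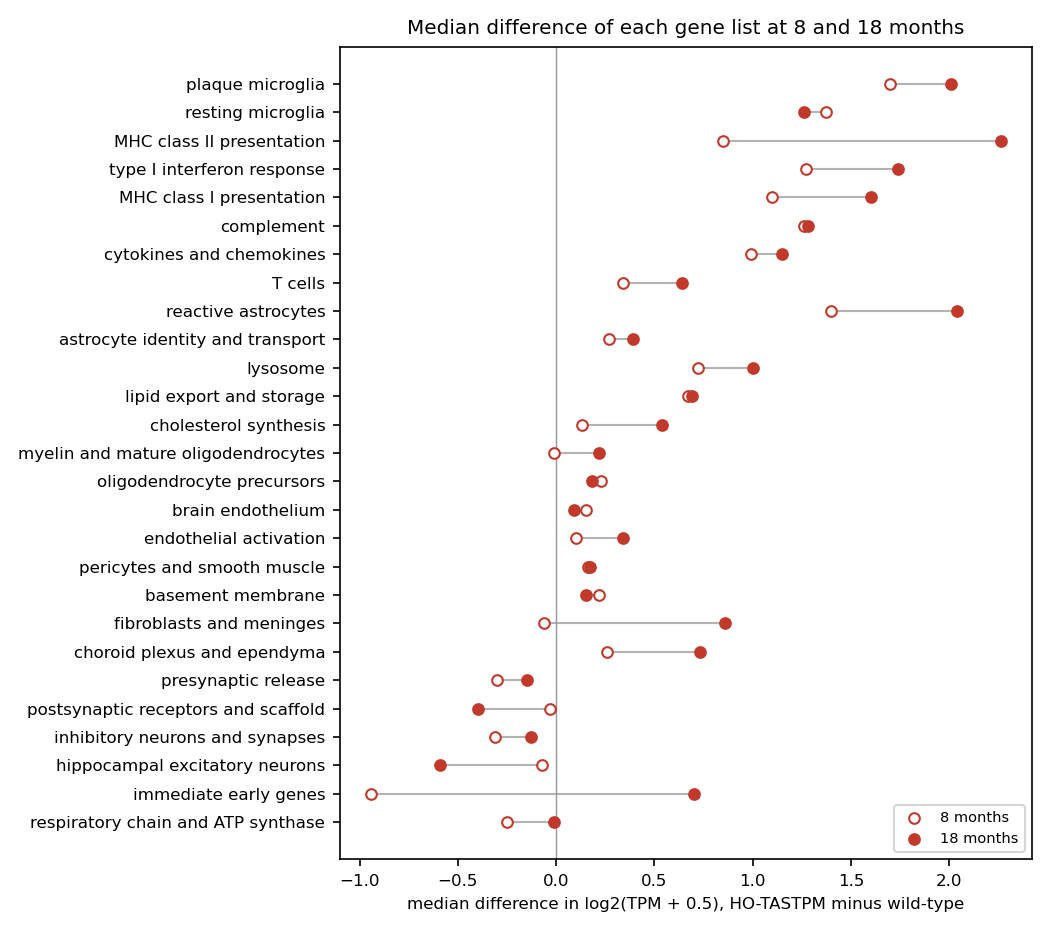
Median over list members of the difference in log2(TPM + 0.5) between HO-TASTPM and wild-type mice (x axis) at 8 months (open circles) and 18 months (filled circles) for 27 gene lists. Plaque microglia and reactive astrocyte lists are at 1.70 and 1.40 already at 8 months, while the immediate early genes are at -0.94 at 8 months and at 0.70 at 18 months.

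HO-TASTPM mice were also set against HET-TASTPM mice of the same age, which carry fewer transgene copies. Of the 22311 genes, 1642 differed between HO-TASTPM and HET-TASTPM mice (7.36%), 1032 of them higher in HO-TASTPM mice (4.63%) and 610 lower (2.73%). After quantile normalization the split turned, with 826 higher and 1321 lower. All 4 HET-TASTPM libraries carried lane numbers 7 and 8, so lane and genotype cannot be told apart here, and 862 genes passed with lane as a covariate. Leaving out 1 mouse at a time gave 503 (without HO-TASTPM mouse 154) to 1616 genes. Rps27 took more TPM than its near-identical copy Rps27rt in all 4 HET-TASTPM libraries and in none of the HO-TASTPM or wild-type libraries of 18 months, but also in 2 of the 8 wild-type libraries of 8 months. Rps27rt was at 1424, 1556 and 1345 TPM in HO-TASTPM mice and at most 148 TPM in HET-TASTPM mice, while the sum of both genes was 1535 to 1607 TPM in HO-TASTPM mice and 1367 to 1565 TPM in HET-TASTPM mice. These 2 genes, as well as mt-Tf and Snord37, which were listed at 0 in all 4 HET-TASTPM libraries, headed the comparison with Mir135a-2 and n-R5s15 and are uncertain. Whether genotype or library made these differences cannot be told apart.

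Many glial genes were higher in HO-TASTPM than in HET-TASTPM mice. Of the 22 reactive astrocyte genes 13 were higher in HO-TASTPM mice (median 0.95), of 25 plaque microglia genes 12 (median 0.79), of 32 lysosomal genes 13 with 1 lower (median 0.37), and of 28 interferon genes 7 (median 0.74). Gfap did not pass, at 1457, 1457 and 1287 TPM in HO-TASTPM mice, against 588 to 1078 TPM in HET-TASTPM mice (0.75, limma adjusted p = 0.0574), whereas C3 did, at 18.1, 22.4 and 11.9 TPM, against 2.03 to 4.85 TPM (2.38, adjusted p = 4.60e-04). Icam1 was at 2.52 to 3.14 TPM and Aebp1 at 2.50 to 5.41 TPM in HET-TASTPM mice, both below every HO-TASTPM mouse (1.32 and 2.07, adjusted p = 3.93e-05 and 1.67e-04). Klk6 was at 9.12 to 23.3 TPM in HET-TASTPM mice (2.13, adjusted p = 0.0392), and Gria1 at 207 to 256 TPM, above every HO-TASTPM mouse (-1.06, adjusted p = 0.0286), and both calls were lost without any HO-TASTPM mouse and without HET-TASTPM mouse 492, 493 or 510. App did not pass (-0.03, adjusted p = 1.0), at 1494 to 1642 TPM in HET-TASTPM mice. Against the same wild-type mice, which both differences share, the list medians of HO-TASTPM and HET-TASTPM mice were 2.04 and 0.99 for reactive astrocytes, 2.01 and 1.17 for plaque microglia, 2.26 and 1.70 for class II genes and 1.26 and 0.84 for resting microglia. Rps27, Pcp2, Nphs1, Scgn and Pcdh20 were the largest decreases, of which Nphs1 and Scgn changed by -1.68 and -1.64 (adjusted p = 0.00486 and 0.00860), and Scgn was lost without mouse 97 (0.124).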

How the data were processed

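Poly(A) RNA from the hippocampus was sequenced as stranded libraries, 1 per mouse. The authors used Trim Galore for trimming, Salmon with the Ensembl GRCm38 transcripts for quantification and tximport for the step to gene level, with no version stated in the sources used here. The deposited unit is TPM with a fixed total of 1000000, which hides sequencing depth, and no counting interval was given. Groups came from the labels, and limma 3.58.1 (R 4.3.3) was fitted to log2(TPM + 0.5) of 26272 genes with a mean for each of 24 groups, 79 residual degrees of freedom and a mean-variance trend. A pseudocount of 0.5 understates changes near 0.

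The contrasts were HO-TASTPM minus wild-type at 18 months, that difference minus the one at 8 months, and HO-TASTPM minus HET-TASTPM at 18 months. Named genes were the 10 largest and 10 smallest called differences with groups that did not overlap, leaving out predicted genes, pseudogenes and unnamed IDs, the 4 smallest p-values of each list, the 5 largest and 5 smallest of each other contrast, App and Thy1, and other list members given as examples. Members and lists were chosen with earlier results of these data known. Other pseudocounts, filters, normalizations, covariates, subsets and left-out mice were tried. Positions are those of GENCODE for GRCm38. For 26 genes the table held dates in place of names, and they were not used by name. A second transgene, 1 further line and some genes are not reported here. Labels gave separate mice, so the spread is that between animals. Figures were drawn with Python 3.11.15 and matplotlib 3.10.9.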

Additional observations from a re-analysis of the deposited data

Results flagged for a closer look

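In 19 of the 129 genes looked at, 1 wild-type mouse of 18 months stood apart from the other 6. Chance alone sets apart about 1 in 20 independent groups. These genes share the same mice and were mostly picked for their differences, so the count cannot be set against that rate. Mouse 2152 was the highest for 10 of them. It had 14042 TPM of Ttr and 6.78 TPM of n-R5s29, and among immune genes 8.52 TPM of Cd74, 7.93 TPM of H2-Aa, 11.6 TPM of Cd55 and 312 TPM of Ctsd. The adhesion genes Icam1 and Vcam1 were at 4.18 and 28.7 TPM in this mouse, and the matrix genes Aebp1 and Col1a2 at 9.61 and 5.08 TPM. Mouse 1145 was the highest for the interferon genes Oas1a (1.16 TPM), Ifit3 (14.4 TPM) and Irf7 (3.52 TPM). Mouse 1151 was the highest for Mir135a-2 (7.38 TPM) and Atf3 (2.08 TPM), mouse 1161 was the lowest for Podxl (4.36 TPM) and the highest for Nes (4.45 TPM), and mouse 2155 was the lowest for Vgf (61.9 TPM) and the highest for Pcp2 (10.4 TPM). In other groups, single mice stood apart for Klk6 (23.3 TPM in HET-TASTPM mouse 509), Tmem132b (24.8 TPM in HET-TASTPM mouse 510), Gng7 (355 TPM in HO-TASTPM mouse 452 of 8 months) and Cxcl13 (0.704 TPM in wild-type mouse 2417 of 8 months).

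For 17 named genes the difference between HO-TASTPM and wild-type mice at 18 months itself differed from that at 8 months by limma's test of that change. Each value is the difference at 18 months minus that at 8 months. Many were named because they were among the 5 largest or 5 smallest changes, so their number is no result. Over all genes 1.33% changed. In a fit of the compared groups alone 4 of the 17 kept their call. Glial and immune genes among them were S1pr3 (1.0, adjusted p = 0.00157), Aldh1l1 (0.77, adjusted p = 0.0364), Cxcl13 (1.68, adjusted p = 0.0301), Ccl9 (-1.41, adjusted p = 0.00347), Trbc2 (4.50, adjusted p = 0.0403) and Trbj2-3 (7.65, adjusted p = 0.00259). Immediate early genes were Fos (3.08, adjusted p = 9.27e-04), Egr1 (2.09, adjusted p = 0.0327) and Dusp1 (1.95, adjusted p = 0.0166). The peptide gene Vip changed by 2.11 (adjusted p = 0.0453) and the receptor gene Cckbr by 2.81 (adjusted p = 0.0209). The transcription factor genes Ovol2 and Onecut1 changed by 2.86 and -1.60 (adjusted p = 0.0339 and 0.0135). More negative changes were those of Mir181c (-7.28, adjusted p = 0.0118), Epyc (-1.87, adjusted p = 0.0192), Rem2 (-1.70, adjusted p = 0.0375) and Gng7 (-1.66, adjusted p = 0.0271). Trbj2-3 was listed at 0 in all 4 HO-TASTPM mice of 8 months and in all 7 wild-type mice of 18 months, and Mir181c in all 3 HO-TASTPM mice of 18 months.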

How the results depend on the processing

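With 3 HO-TASTPM mice, single libraries moved the counts. Of the genes that differed between HO-TASTPM and wild-type mice (2029), 1160 passed within lane number 3, and leaving out 1 mouse gave 1285 (without HO-TASTPM mouse 154) to 2026. For the change between 8 and 18 months (296), 51 passed with only the compared groups in the fit, and leaving out 1 mouse gave 97 to 436, with low counts also without HO-TASTPM mouse 97 and without wild-type mouse 1161 (163) or 2152 (171) of 18 months, or wild-type mouse 2342 (170) or 1462 (191) of 8 months. For HO-TASTPM minus HET-TASTPM (1642), 862 passed with lane and 1041 with the region score as a covariate, and leaving out 1 mouse gave 503 to 1616, with 872 and 949 without HET-TASTPM mouse 492 or 493, and 910 and 1008 without HO-TASTPM mouse 113 or 97. The cause was not tested. After quantile normalization the sign turned for Mbp (-0.03) and mt-Nd1 (0.09). Leaving out 1 mouse moved Ttr between -0.18 and 3.80 and Snord37 between -0.20 and 0.40, and Snord37 was at -0.16 with lane as a covariate. The 3 counts stayed within 1.5 times with 0.1 or 1 added to TPM, a filter at a mean log2(TPM) of 1.5, no filter, and quantile normalization. No paired analysis was possible because the labels number each mouse once and pair no mice. The sequencing depth behind the values is unknown, since TPM do not carry it.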

Other observations

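Of 16 cell cycle genes described 2 were higher in HO-TASTPM mice, where 7.68% of all genes were. Mcm3, a subunit of the replicative helicase, was at 2.39, 2.25 and 2.39 TPM in HO-TASTPM mice, against 0.909, 1.17 and 1.43 TPM as the lowest, median and highest wild-type values (0.82 ± 0.25, limma adjusted p = 0.0285). Ccnb2, a mitotic cyclin, rose by 0.68 ± 0.21 (adjusted p = 0.0319). Both calls were lost without any HO-TASTPM mouse. That of Ccnb2 was also lost without wild-type mouse 2152 or 2155 and with lane as a covariate (0.65, adjusted p = 0.0696).

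Of 6 adult neurogenesis genes described 2 were higher, where 7.68% of all genes were. Nes, the filament of neural stem cells, also made by reactive astrocytes, was at 5.94, 4.45 and 5.11 TPM, against 2.79, 2.95 and 4.45 TPM (0.64 ± 0.15, limma adjusted p = 0.00231), and the call was lost without mouse 97 (0.0526). Sox11, a factor of immature neurons, rose by 0.48 ± 0.16 (adjusted p = 0.0427), a call lost without any HO-TASTPM mouse and without wild-type mouse 2152, 2153 or 2155. Of 15 cell stress genes described 1 was higher, where 7.68% of all genes were. It was Atf3, a stress transcription factor, at 3.80, 2.40 and 2.65 TPM, against 0.402, 0.632 and 2.08 TPM (1.45 ± 0.27, adjusted p = 2.92e-05). Within lane number 3 Mcm3 passed and the other 4 of these genes did not.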
